A study of Mus musculus with 8 samples.

Results

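The AP-1, ATF3 and BACH factors described here are 10 genes that encode basic leucine zipper (bZIP) transcription factors: Fos, Fosb, Fosl2, Jun, Junb, Jund, Atf3, Batf, Maff and Bach1. They were chosen by symbol, with earlier results of these data known, and all 10 were found among the 23997 genes of the processed table. RNA sequencing had been performed on marginal zone B cells (MZBs), splenic B cells that sit beside the marginal sinus and respond early to antigen in the blood. The labels list 8 libraries from C57BL/6 mice, 4 of genotype ACKR3+ and 4 of genotype ACKR3-, and the titles name the same groups by the presence or absence of GFP. No label gives the age of the mice, the construct that carries GFP or the sort gates. The table holds 1 estimated fragment count and 1 variance per gene for each of 2 pooled conditions, q2 and q1, and no label ties either name to ACKR3+ or ACKR3- cells. Values are therefore named by condition and say nothing on ACKR3+ against ACKR3- cells. Ackr3 itself, the atypical chemokine receptor that defines the groups, had 149.0 fragments in q2 and 1030 in q1. The counts summed to 16653774 fragments in q2 and 16877559 in q1, and the depth of single libraries is unknown. With 1 value per condition, differences between mice cannot be seen and nothing was tested. The value after ± is the SD from the deposited variance, and log2 ratios are q2 over q1 with a pseudocount of 1.

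bZIP factors bind DNA as dimers, with a basic region that contacts the DNA and a leucine zipper that holds the partners together. FOS and JUN proteins form the AP-1 dimers, which are made within minutes to hours of antigen receptor or stress signals, and JUN proteins can also pair with themselves. ATF3 is a stress-induced factor that binds related sites, BATF pairs with JUN proteins and works with IRF4 or IRF8 in lymphocytes, and MAFF is a small MAF protein without an activation domain. BACH1 pairs with small MAF proteins, represses heme and antioxidant genes, and is released from DNA by heme.

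Compared with each other, the members fell into an abundant set and a scarce set. Per kilobase of the longest coding transcript, Fos was the most abundant, with 4729 ± 456 fragments per kb in q2 and 5140 ± 507 in q1, at rank 159 in q2 and rank 151 in q1 of 16312 genes. Fosb, Junb, Jun and Jund followed in that order in both conditions, between 2438 and 3253 fragments per kb in q2 and between 2320 and 4195 in q1. The ranges of 1 SD of neighbours in this order overlapped from Fosb to Jund in q2 and from Fosb to Jun in q1, so these neighbours are not resolved. The other 5 members were at least 10 times scarcer per kb. Batf had 217 fragments per kb in q2 and 203 in q1, and Bach1 had 122 in q2 and 117 in q1. Among the 16312 genes Batf had rank 5294 in q2 and 5492 in q1, and Bach1 rank 7121 in q2 and 7215 in q1. Scarce is thus relative to the FOS and JUN genes for these 2. Atf3 had a different place in the order of each condition, with 27.3 ± 6.57 fragments per kb in q2, below Bach1, and 203 ± 28.3 in q1, level with Batf. Maff had 12.8 in q2 and 27.5 in q1, and Fosl2 was the scarcest, with 3.46 in q2 and 7.44 in q1. Jund is less certain than the others on this scale, since its RefSeq start lies upstream of the transcript used for its length.

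**Figure D1:**
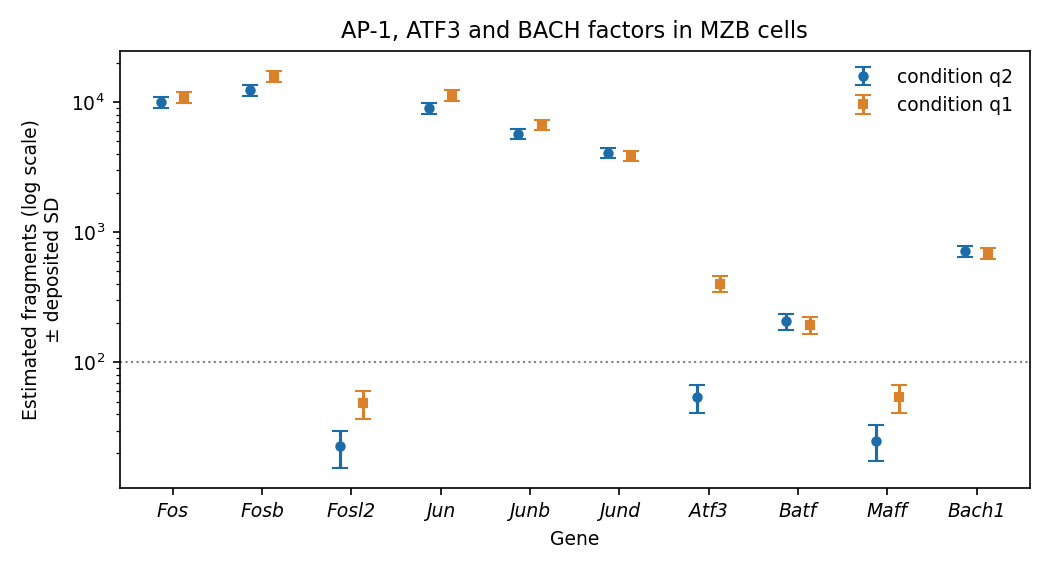
Estimated fragments (log scale) of the 10 members in condition q2 (circles) and condition q1 (squares); bars are the deposited SD, 1 value per condition, and the dotted line marks 100 fragments. Atf3 had 54.2 fragments in q2 and 403 in q1, while the pairs of Jund, Batf and Bach1 overlap.

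The genes share features of structure that were not used to choose them. The 3 JUN genes have 1 exon each in GENCODE M21, as do 2.13% of genes with at least 100 fragments, and the other members have 3 to 5. Transcript GC content was above the median of those genes, 49.7%, in 9 of the 10 members, with Jund the highest at 67.1% and Bach1 the lowest at 46.7%. The 250 bases before each RefSeq start were searched on both strands for several known elements. The AP-1 site was searched as TGANTCA. The cyclic AMP response element (CRE) was searched as TGACGTCA, and its core, which any full element also holds, as TGACG. The GC box was searched as GGGCGG. The CCAAT box was searched in those letters, and the box that places the start of transcription as TATAAA. The CArG box, the site of serum response factor, was searched by its usual pattern. The 10 genes have 12 such windows, because Maff has 3 starts. The Atf3 window lies inside its GENCODE gene. The Jund window lies before a RefSeq start at 70697739, upstream of the GENCODE start at 70698949. The windows of Fosl2 and of the third Maff start begin in annotated exons. A GC box was found in 9 of the 12, from 8 of the 10 genes, against 32.7% of all 32851 windows. The CRE core was found in 7 windows, from 6 genes, against 17.8%. The windows of all genes were not matched to the members for GC content. A full CRE was found in the window of the second Maff start alone, and is held by 1.55% of all windows. The TATAAA element was found before Fos alone (12.4% of windows), and a CCAAT box before Jun and Junb (33.8%). No member window held an AP-1 site or a CArG box in the patterns searched, which 6.75% and 1.47% of windows hold. Variants of these patterns, such as TGACATCA in the Jun sequence printed below, and sites beyond the 250 bases were not searched. These matches describe the sequence only.

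**Figure D2:**
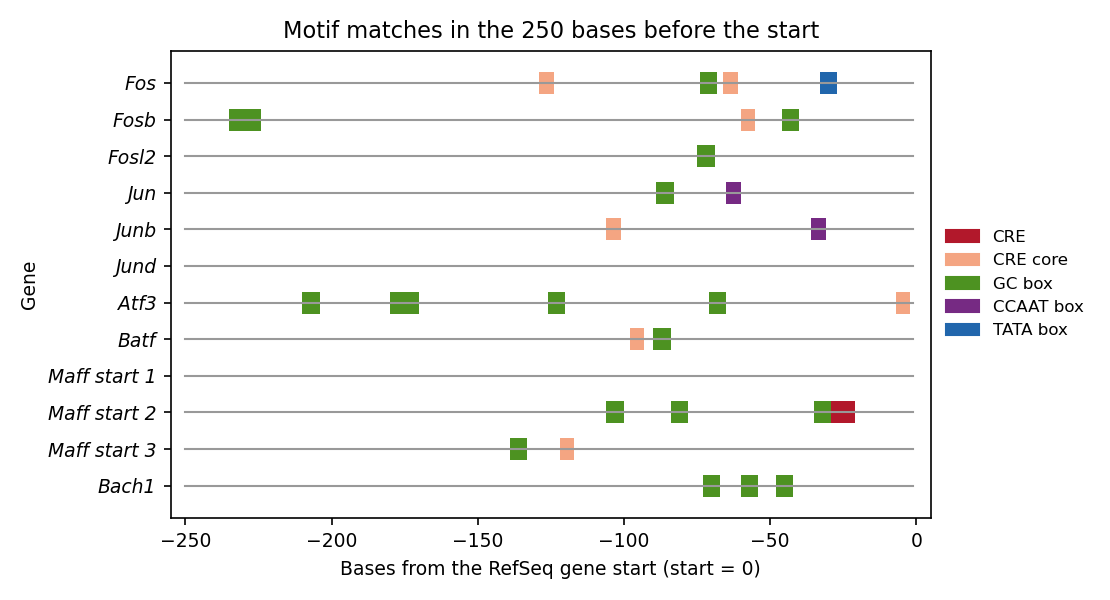
Positions of motif matches in the 250 bases before each RefSeq start of the 10 members; the horizontal axis is the distance in bases from the start and each bar is 1 match. Atf3, Bach1 and the second start of Maff hold several GC boxes, and the full CRE lies close to the second Maff start.

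The sequences before the start of Atf3 and Maff, which differed between the conditions by more than 2-fold, are shown first, and those of Fos and Jun, abundant members with small differences, are shown for contrast. They are from RefSeq, build GRCm38.p6, 5′ to 3′ on the strand of the gene, without bases that lie in an annotated exon, and capitals mark matches to the motifs above. The window of Fosl2 lies in an annotated first exon and is not shown. Atf3 lies on the minus strand at chr1:191183341-191183583, Maff on the plus strand at chr15:79347270-79347519, Fos on the plus strand at chr12:85473640-85473889 and Jun on the minus strand at chr4:95052223-95052472.
Atf3: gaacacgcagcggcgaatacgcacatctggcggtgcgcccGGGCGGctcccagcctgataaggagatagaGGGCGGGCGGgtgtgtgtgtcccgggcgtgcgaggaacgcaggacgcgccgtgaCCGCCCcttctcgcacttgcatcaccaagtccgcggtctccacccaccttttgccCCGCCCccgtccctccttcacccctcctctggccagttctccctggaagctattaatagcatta
Maff, second start: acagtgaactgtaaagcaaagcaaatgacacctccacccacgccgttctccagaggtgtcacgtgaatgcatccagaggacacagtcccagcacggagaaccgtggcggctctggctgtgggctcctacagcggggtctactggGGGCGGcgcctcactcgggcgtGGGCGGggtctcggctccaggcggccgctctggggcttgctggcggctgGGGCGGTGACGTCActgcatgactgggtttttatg
Fos: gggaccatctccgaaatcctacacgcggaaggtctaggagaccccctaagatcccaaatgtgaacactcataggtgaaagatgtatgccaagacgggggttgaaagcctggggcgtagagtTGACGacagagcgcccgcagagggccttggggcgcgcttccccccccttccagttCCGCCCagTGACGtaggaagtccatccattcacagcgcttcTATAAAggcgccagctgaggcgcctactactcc
Jun: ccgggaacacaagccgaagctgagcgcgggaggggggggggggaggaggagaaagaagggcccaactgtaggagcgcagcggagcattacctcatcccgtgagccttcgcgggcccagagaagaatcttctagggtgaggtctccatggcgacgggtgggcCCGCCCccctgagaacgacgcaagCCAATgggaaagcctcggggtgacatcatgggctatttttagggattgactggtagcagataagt
The Atf3 sequence shows 5 GC boxes, a pair of which overlap (its CRE core lies in the exon and is not printed), and the Maff sequence shows 3, the last of which runs into the CRE. In the Fos sequence 2 CRE cores and a GC box stand upstream of the TATAAA element.

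Atf3 (chromosome 1, 191170296 to 191218039, GRCm38, minus strand) differed most. The window printed above precedes its RefSeq start at 191183333, which lies inside this interval. Atf3 had 54.2 ± 13.04 fragments in q2 and 403 ± 56.2 in q1. The values stood far apart, and the ranges of 2 SD around them did not overlap. The log2 ratio was -2.87 ± 0.40, which is 7.25 times its SD. Without a pseudocount the ratio of q1 over q2 was 7.43, with a Clopper-Pearson 95% interval of 5.59 to 10.1. That interval treats the estimated fragments as raw counts, so it is approximate and covers counting error only. Log2 ratios were ranked over the 9582 genes that reached 100 fragments in at least 1 condition. With the pseudocount of 1 that of Atf3 was the lowest, at rank 1. This rank is not resolved from that of Ackr3, whose ratio differed by 0.09, less than either SD. The order of these genes depends on the pseudocount. The 3 genes nearest to it in log2 ratio, over these 2 conditions, were Ackr3 at -2.78 ± 0.27, Stc1 at -2.38 ± 0.46 and Adamdec1 at -2.38 ± 0.52. Atf3, Stc1 and Adamdec1 passed the minimum of 100 fragments only through q1, the condition where they were high. The deposited coefficient of variation of Atf3 in q1, 13.97%, was above the running median of 11.7% for genes of similar count, the only value among the members to stand over 10% from that median in either condition. Because the RNA came from bulk cells, fewer cells that express Atf3 and less Atf3 RNA per cell cannot be told apart. Macrophage and monocyte markers, 16 genes, summed to 1293 fragments in q2 and 1765 in q1, and their part in this result was not tested.

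The other members of the scarce set did not all go the same way. Maff (chromosome 15, 79346621 to 79359076), the small MAF partner, had 25.1 ± 7.75 fragments in q2 and 53.9 ± 13 in q1. Fosl2 (chromosome 5, 32135801 to 32157842), which encodes the FOS-related protein FRA-2, had 22.6 ± 7.16 fragments in q2 and 48.6 ± 11.7 in q1. Both were lower in q2, and the ranges of 1 SD did not overlap for either gene. Their log2 ratios were -1.07 ± 0.55 for Maff and -1.07 ± 0.55 for Fosl2, both under 2 SD. Their approximate 95% counting intervals for q1 over q2 ran from 1.31 to 3.59 and from 1.28 to 3.71. Neither reached 100 fragments, and with a pseudocount of 10 both ratios came below 2-fold, at -0.86 for Maff and -0.84 for Fosl2. Batf (chromosome 12, 85686669 to 85709087) had 207 ± 29.4 fragments in q2 and 194 ± 28.1 in q1, a log2 ratio of 0.10 ± 0.29. Bach1 (chromosome 16, 87698945 to 87733346) had 716 ± 72.9 fragments in q2 and 689 ± 70.7 in q1, at 0.06 ± 0.21. For Batf and Bach1 the values overlapped within 1 SD, so a small difference in either direction was not resolved.

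In the FOS family Fosb was lower in q2 by more than 1 SD and Fos was not. Fosb (chromosome 7, 19302696 to 19310051) had 12304 ± 1139 fragments in q2 and 15865 ± 1599 in q1, a log2 ratio of -0.37 ± 0.20. Fos (chromosome 12, 85473890 to 85477273), the inducible partner of JUN proteins in AP-1, had 9968 ± 960 fragments in q2 and 10835 ± 1069 in q1, at -0.12 ± 0.20. The Fosb values were separated by more than 1 SD on each side, and the Fos values overlapped. Together with Fosl2 the family summed to 22295 fragments in q2 and 26748 in q1. Per kb, Fos made up 59.2% of the family in q2 and 55.0% in q1, Fosb 40.7% in q2 and 44.9% in q1, and Fosl2 0.043% in q2 and 0.080% in q1. After correction for expression, length and GC content of the transcripts, the Fos ratio was -0.068.

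The JUN genes differed among themselves. Jun (chromosome 4, 95049034 to 95052222), the founding AP-1 protein, had 8959 ± 845 fragments in q2 and 11224 ± 1082 in q1, a log2 ratio of -0.33 ± 0.19. Junb (chromosome 8, 84974484 to 84978718), a weaker activator that can oppose JUN, had 5718 ± 505 fragments in q2 and 6665 ± 602 in q1, at -0.22 ± 0.18. Jund (chromosome 8, 70698949 to 70700616), the JUN gene expressed most constantly in resting cells, had 4066 ± 354 fragments in q2 and 3869 ± 337 in q1, at 0.07 ± 0.18. Jun values were apart by more than 1 SD on each side, whereas those of Junb and of Jund overlapped. The family summed to 18744 fragments in q2 and 21758 in q1. Per kb, Jun made up 33.4% of the JUN family in q2 and 37.0% in q1, Junb 37.6% in q2 and 38.7% in q1, and Jund 29.0% in q2 and 24.4% in q1. The same correction gave -0.10 for Junb and 0.21 for Jund, and 0.031 for Bach1. An exon of Junb overlaps one of Prdx2 on the opposite strand, which had 962 fragments in q2 and 1028 in q1. Jun and Jund likewise overlap the antisense genes Junos and Gm11175, and without stranded counting, which the sources used here do not state, such reads cannot be told apart.

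The members were chosen with earlier results of these data known, so the shares below describe them and are not a test of enrichment. Of the 10 members, 8 reached 100 fragments. Of these 8, 1, Atf3, was at least 2-fold lower in q2, where 0.438% of all 9582 genes were. Atf3 passed the minimum only through q1, the condition where it was high. None of the 8 was at least 2-fold higher, where 1.84% of genes were. By any amount, 5 of the 8 were lower in q2, against 49.8% of all genes, which is a share near the background. Lower by more than 1 SD of the log2 ratio were 4 of the 8, namely Atf3, Fosb, Jun and Junb, against 8.41% of genes. Junb is counted by this rule although the ranges of 1 SD around its values overlapped. The SD in the other shares of this paragraph is also that of the log2 ratio. After the correction for expression, length and GC content they were 3 of the 8, without Junb, against 8.13% of 9531 genes. More than 2 SD apart was Atf3 alone, against 6.26% of genes. The median log2 ratio of the 8 was -0.17, and that of all 9582 genes was 0.00. After the same correction the median of the 8 was -0.085, and that of all genes was -0.01. For comparison with genes as abundant as the FOS and JUN members, the 1258 other genes with at least 3000 fragments had a median log2 ratio of -0.02, with percentile 5 at -0.28 and percentile 95 at 0.26, and 10.3% of them were lower in q2 by more than 1 SD. Fosb and Jun lay below that percentile 5, and Fos, Junb and Jund lay between the percentiles. After the correction none of the 5 lay outside them: percentile 5 was then -0.257, beside -0.256 for Fosb and -0.236 for Jun. With a minimum of 20 fragments, which all 10 members reached, 3 were at least 2-fold lower in q2, against 0.914% of 11163 genes, and the median of the members was -0.27.

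**Figure D3:**
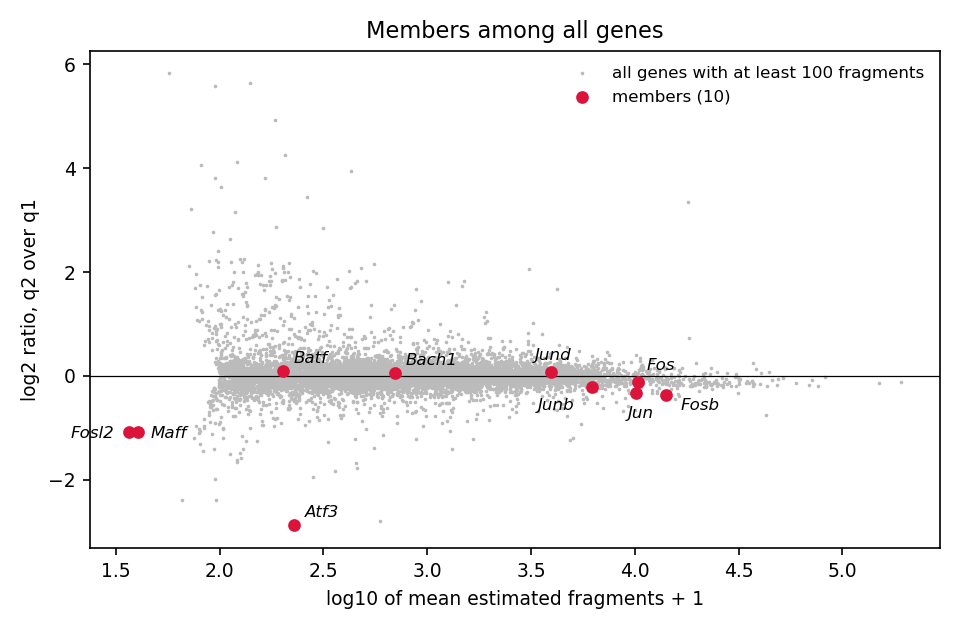
Log2 ratio of q2 over q1 (vertical axis) against the log10 of mean estimated fragments plus 1 (horizontal axis) for 9582 genes that reached 100 fragments (grey) and the 10 members (red, Fosl2 and Maff below that minimum). Atf3 has the lowest ratio of all points, not resolved from that of Ackr3, and Fos, Fosb and the JUN genes lie at the abundant end close to 0.

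The remaining bZIP genes did not share one direction. Of the 43 other family members listed, 24 reached 100 fragments, of which 12 were higher and 12 lower in q2, with a median log2 ratio of 0.01. At least 2-fold higher in q2 were 3 of them, Bach2, Xbp1 and Atf5, and none was at least 2-fold lower. Bach2, the lymphocyte relative of Bach1 that restrains plasma cell differentiation, had 1995 ± 180 fragments in q2 and 772 ± 79.4 in q1, at 1.37 ± 0.20, beside 0.06 ± 0.21 for Bach1. Per kb the order of the pair differed between the conditions: Bach2 had 225 fragments per kb in q2 and 86.9 in q1, and Bach1 had 122 in q2 and 117 in q1. Xbp1, the factor of the unfolded protein response, stood at 1.02 ± 0.18, and Atf5 at 1.05 ± 1.26, which is within its SD. Nfe2l2, which encodes NRF2, the competitor of BACH1 for small MAF partners, stood at -0.09 ± 0.19. The small MAF genes Mafk and Mafg stood at -0.35 ± 0.19 and 0.13 ± 0.31. Fosl1, which encodes FRA-1, had 0 fragments in both conditions, and Batf3 had 2.17 in q2 and 2.94 in q1, so BATF-family RNA was mainly that of Batf.

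**Figure D4:**
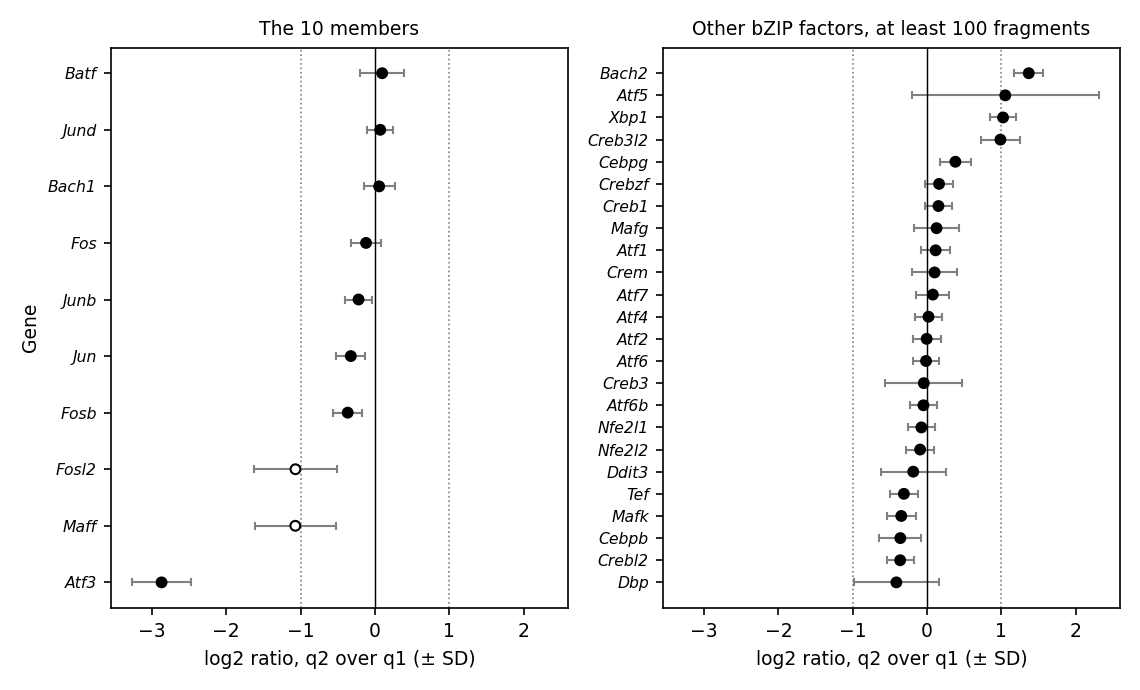
Log2 ratio of q2 over q1 with its SD from the deposited variances for the 10 members (left; open circles are below 100 fragments) and for the 24 other bZIP factors with at least 100 fragments (right); dotted lines mark 2-fold. Atf3, at -2.87, stands apart at the low end, and Bach2, at 1.37, is the highest of the other factors.

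Of the genes that act before the members, most of the abundant ones were within 1.5-fold, and several scarce ones were higher in q2. Of 31 genes for MAP kinase and serum response inputs to AP-1, 28 reached 100 fragments, 13 higher and 15 lower in q2, with a median of -0.02 and 27 of them within 1.5-fold. Of the 3 below 100 fragments, 1, Mapk12, was at least 2-fold higher in q2 and none was 2-fold lower. Mapk11, encoding p38 beta, was the exception among the 28, with 515 ± 56.5 fragments in q2 and 227 ± 31.4 in q1, at 1.18 ± 0.25. Map2k6, which activates p38 kinases, stood at -0.28 ± 0.26 and Rps6ka5, the kinase MSK1, at 0.23 ± 0.22. Of the 13 phosphatases and feedback genes, 6 reached 100 fragments, 3 in each direction, with a median of 0.01. Of the 7 below 100 fragments, 4 were higher in q2 by 2-fold or more and none was 2-fold lower. Dusp1, an immediate early phosphatase of MAP kinases, had 2250 ± 206 fragments in q2 and 3221 ± 294 in q1, at -0.52 ± 0.19, while Dusp10 stood at 0.75 ± 0.33 and Dusp7 at 0.34 ± 0.23. Of 21 other immediate early genes, 19 reached 100 fragments, with 14 lower and 5 higher in q2, 1 of them, Nr4a2, by at least 2-fold, and a median of -0.26. After Nr4a2, at -1.50 ± 0.41, the largest ratios were those of Myc and Klf4, at -0.67 ± 0.19 and -0.66 ± 0.20.

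Genes tied to single members are given beside them. Of 15 ATF4 and integrated stress response genes, a pathway that induces Atf3, 11 reached 100 fragments, 5 higher and 6 lower in q2, with a median of -0.01 and none 2-fold apart. Of the 4 below 100 fragments, 2, Asns and Chac1, were at least 2-fold higher in q2. Psat1, a serine synthesis enzyme, stood at 0.75 ± 0.24, Ppp1r15a, the phosphatase subunit GADD34, at -0.51 ± 0.19 and Sesn2 at -0.37 ± 0.26. Of 14 targets of BACH1 and NRF2, 10 reached 100 fragments, 4 higher and 6 lower in q2, with a median of -0.03. Hmox1, the heme-degrading target of BACH1, had 88.3 ± 17.6 fragments in q2 and 212 ± 31.7 in q1, at -1.26 ± 0.36. Slc40a1, the iron exporter, stood at -1.49 ± 0.39 and Blvrb, a biliverdin reductase, at 0.91 ± 0.24. Of the partners of BATF on composite DNA elements, Irf4 stood at -0.28 ± 0.18 and Irf8 at 0.24 ± 0.18. Spi1, encoding PU.1 and listed with them, stood at -0.12 ± 0.19, and the median of the 3 genes was -0.12. Heat shock and dissociation stress genes had a median of 0.07 over 10 genes, 7 higher and 3 lower in q2, with Hspa1a at -0.44 ± 0.23, Dnaja1 at 0.35 ± 0.23 and Hspa1b at -0.31 ± 0.19.

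**Figure D5:**
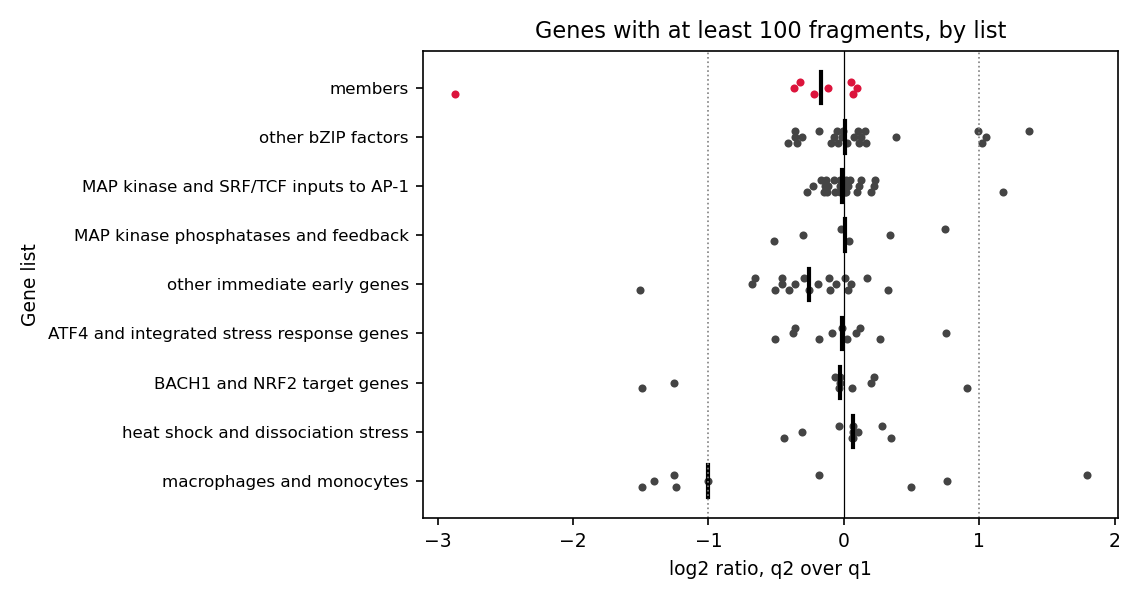
Log2 ratio of q2 over q1 of genes with at least 100 fragments (points) in the members and 8 further lists, with each list's median (black bar); dotted lines mark 2-fold. The medians lie near 0 except those of the members at -0.17, other immediate early genes at -0.26 and macrophage and monocyte markers at -1.001.

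Markers of cell types also differed between the conditions. B cell genes were abundant in both conditions, with a median log2 ratio of -0.10 over 6 genes. Marginal zone genes were lower in q2 in 8 of 8 cases, at a median of -0.57, and follicular genes, among which Bach2 is counted, were higher in 6 of 7, at 0.83. Germinal center, plasma cell and cell cycle markers had medians of 4.59, 1.35 and 1.98. Xbp1 and Irf4 are on the plasma cell list. None of the 16 macrophage and monocyte markers was at 0. Of the 9 with at least 100 fragments, 6 were lower and 3 higher in q2, 5 of them at least 2-fold lower and 1 at least 2-fold higher. The 3 higher ones were Ly6c2, a monocyte surface marker with 208 fragments in q2 and 59.4 in q1 (a log2 ratio of 1.79 ± 0.38), Emr1, encoding F4/80, at 0.76 ± 0.37, and Itgam, encoding CD11b, at 0.49 ± 0.31. Csf1r, the macrophage growth factor receptor, had 78.8 fragments in q2 and 188 in q1, and C1qa, a complement component, had 21.8 in q2 and 61.2 in q1. Hmox1 and Slc40a1 are on this list as well. The part of macrophage RNA in the values of Maff, Fosl2 and Hmox1 was likewise not tested. Summed fragments of the other marker lists were 418 in q2 and 263 in q1 for dendritic cells, 537 in q2 and 415 in q1 for T cells and 283 in q2 and 321 in q1 for NK cells. Prf1 set the direction for NK cells, with 189.5 fragments in q2 and 265 in q1; the other 5 NK genes were all higher in q2 and summed to 93.2 in q2 and 56.2 in q1. They were 62.0 in q2 and 54.7 in q1 for neutrophils, 138 in q2 and 123 in q1 for erythroid cells, 28.6 in q2 and 23.0 in q1 for platelets, and 3602 in q2 and 3502 in q1 for stromal and endothelial cells. Pecam1 alone gave 3537 of the stromal and endothelial sum in q2 and 3415 in q1, and the other 7 genes summed to 65.2 in q2 and 87.1 in q1. Without Car2 the erythroid sum was 103 in q2 and 109.99 in q1.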

How the data were processed

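Per the labels' protocols, Trizol was used for extraction and an Illumina TruSeq RNA kit for the libraries. The submitters' processing notes name Cuffdiff 2.2.1, TopHat2 2.0.14, cutadapt 1.8.1 and the build mm10. The annotation, the strand setting and the filters are not named there. The table deposited by the authors holds, per the file headers, estimated counts of fragments for 2 conditions, pooled over libraries, each with a variance, whose isoform part was 0 for every gene. Near-equal totals point to scaling that the file does not state, and the file does not say whether the variance is that of 1 library or of the pooled value. For 89.1% of genes it lay near a running median over 101 genes of similar count, so it follows mainly the count.

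Ratios used a pseudocount of 1 (low genes are pulled toward 0), and SDs were propagated to first order (Python 3.11.15, numpy 2.4.6, pandas 2.3.3, scipy 1.17.1), with a minimum of 100 fragments and a 2-fold rule. With 1 value per condition no test was run. The calculation was tested on simulated data. Intervals treat the estimated fragments as raw counts, although their scaling is not stated, so they are approximate and cover counting error only. Positions, lengths and GC content are from GENCODE M21 (22694 genes by symbol, 912 by a synonym) and promoters from RefSeq; all 10 members matched both. The members and gene lists were chosen with earlier results of these data known. Beside the members, the rule for naming took up to 3 genes per list with the largest ratios, plus Bach2, Nfe2l2, Hmox1, Irf4, Irf8, Ackr3 and the 3 genes nearest to Atf3; Mafk, Mafg, Fosl1, Batf3, Csf1r, C1qa, Ly6c2, Emr1, Itgam, Prf1, Pecam1, Car2 and the promoters of Fos and Jun were chosen after their values were seen, as were the comparison with genes of at least 3000 fragments and the counts and percentiles after correction. Alternatives were pseudocounts of 0 and 10, minimums of 20 and 500 fragments, 2 scalings, a correction for GC content, length and expression by splines (patsy 1.0.2), a 1.5-fold rule and a further requirement of 2 SD.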

Additional observations from a re-analysis of the deposited data

How the results depend on the processing

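No paired analysis was possible because values of single libraries were not analysed here. Settings that need them (libraries left out, tests on counts, a replicate block) were therefore not run. Of 48 recomputed member ratios, 43 stayed within the 95% counting interval, and all 10 members kept their sign under each setting that gave a value. Part of this was fixed in advance. A pseudocount of 0 gives the ratio on which that interval is built, and no pseudocount can change a sign. The Atf3 ratio ran from -2.92 to -2.68, and its rank over all genes was not recomputed. The 5 that moved were all under the correction by splines for the gene's properties: Fos at -0.068, Fosb at -0.26, Jun at -0.24, Junb at -0.10 and Jund at 0.21; the corrected median of the members was -0.085. That correction gave no value for Fosl2 and Maff, which are below 100 fragments. With a minimum of 20 fragments the median of the members was -0.27 and 3 were at least 2-fold apart; with 500 fragments 0 were, because Atf3, Batf, Fosl2 and Maff are then not counted. The number stayed at 1 under the other settings. The median of the other bZIP factors stayed between -0.028 and 0.027. Depth limits Fosl2 and Maff most.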

Other observations

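Some scarce genes of the same pathways, chosen after their values were seen, were higher in q2. Mapk12, encoding p38 gamma, had 82.2 fragments in q2 and 19.5 in q1, a log2 ratio of 2.02 ± 0.54. Among feedback inhibitors of MAP kinase signalling, Spred1 had 92.2 fragments in q2 and 39.5 in q1, Spred2 had 61.0 in q2 and 18.0 in q1, and Dusp4 had 66.7 in q2 and 22.4 in q1, at 1.20 ± 0.45, 1.71 ± 0.56 and 1.53 ± 0.54. Of the targets of ATF4, Asns, which makes asparagine, had 82.5 fragments in q2 and 32.8 in q1, and Chac1, which degrades glutathione, had 35.6 in q2 and 8.20 in q1, at 1.31 ± 0.49 and 1.99 ± 0.72. All 6 lie below 100 fragments, where the deposited SD is large, and Atf4 itself had 4656 fragments in q2 and 4593 in q1, at 0.02 ± 0.18.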
